A study of Mus musculus with 8 samples.

Results

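Inward rectifier potassium channels, encoded by the Kcnj genes, were followed in RNA-seq libraries made from whole mouse brains in bulk. The 10 genes were Kcnj2, Kcnj3, Kcnj4, Kcnj6, Kcnj9, Kcnj10, Kcnj11, Kcnj12, Kcnj13 and Kcnj16, taken by symbol from the 24343 genes of the deposited table, and all 10 were found. The brains came from 3 mice of the strain C57BL/6NCrl, 56 to 62 days old, which formed a single condition with no treatment named, and the labels used here give no sex. Mice 1 and 2 gave 3 libraries each and mouse 3 gave 2. What a library number stands for is not given in the sources used here, so the libraries of a mouse may be technical repeats. Every p-value below sets a difference between mice against the spread among the libraries made from each mouse, and the number of animals stays at 3.

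Inward rectifiers pass potassium into the cell more readily than out of it, because magnesium and polyamines block the pore from inside at depolarized voltages. Each channel is a tetramer of subunits with a pair of membrane-spanning helices, and a short loop between them forms the potassium selectivity filter. In the brain these channels set the resting potential of neurons and glia, clear potassium released by firing neurons, slow neurons in response to transmitters that act through G proteins, and couple excitability to the ATP content of the cell.

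The coding sequence of the selectivity filter is the family's signature and is shown for 5 genes to let them be compared. The 30 bases were read from GENCODE M21 transcripts on the mm10 build, 5′ to 3′ on the coding strand, with the 3 filter codons in capitals.
Kcnj10, chr1:172369296-172369325, plus strand, exon 2 of 2: cagaccaccatcGGCTATGGCttccgctac
Kcnj3, chr2:55437621-55437650, plus strand, exon 2 of 4: gaggccaccatcGGCTATGGCtaccgctac
Kcnj9, chr1:172326175-172326204, minus strand, exon 3 of 4: gagaccaccatcGGCTATGGGcaccgggtc
Kcnj11, chr7:46099487-46099516, minus strand, exon 1 of 1: caggtgaccattGGTTTCGGCgggcgcatg
Kcnj13, chr1:87389012-87389041, minus strand, exon 2 of 3: caacttacaattGGTTATGGTaccatgttt
Among these 5 genes the middle filter codon was TTC in Kcnj11 and TAT in the other 4. Of the 30 bases, 27 matched those of Kcnj10 in Kcnj3 and 15 in Kcnj13. The longest coding stretch that any 2 of the 10 genes shared was 32 bases long and lay in Kcnj12 (chr11:61069721-61069752, plus strand) and Kcnj4 (chr15:79485239-79485270, minus strand). It read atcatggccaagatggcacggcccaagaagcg, and it is shown because reads inside such a stretch cannot be placed on 1 gene by sequence alone. These 2 genes had 13 stretches of 25 bases in common, which is 0.477% of those of Kcnj12 and 0.611% of those of Kcnj4.

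All values are FPKM, mapped fragments scaled to transcript length and to library size, summed over the transcripts of a gene, so levels can be compared between genes per length. Between 1.31 and 2.02 gigabases lay on transcripts in each library. Markers of the cell types of the brain were detected, and 4 of 5 pituitary markers averaged below 1 FPKM. Mouse 3 stood apart in both of its libraries. A limma F-test over the 3 mice called 3310 of the 13001 genes that averaged 1 FPKM or more (25.5%) at an adjusted p under 0.05. Without mouse 3 library 2 it called far fewer, and without mouse 3 library 1 it called more, so these 2 libraries were not alike. A limma contrast of mouse 3 with mice 1 and 2 called 20.4% of all genes tested higher in mouse 3 and 17.5% lower. These shares stand beside every count of called markers given with FPKM. The contrast called 4 of 4 ependymal, 2 of 5 microglial, 2 of 5 endothelial and 1 of 5 blood markers higher, the last near the share of all genes. It called 1 of 4 markers of oligodendrocyte precursors lower and no marker of leptomeningeal fibroblasts. Without mouse 3 library 2 the ependymal and microglial calls fell to 0, the endothelial ones to 1 and that of the precursors to 0, and with the trend with transcript length removed 1 ependymal marker was called. The summed FPKM of all genes was 384885 and 409889 in mouse 3 and 295541 to 345572 in mice 1 and 2.

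The levels of the 10 genes ranged from Kcnj10 at 67.9 ± 22.5 FPKM (SD, n = 3 mice) to Kcnj2 at 2.64 ± 0.148 FPKM. Kcnj10 encodes Kir4.1, the main potassium conductance of astrocytes, and its level lay at percentile 93.2 of the genes tested. Next came a group of neuronal subunits that were close to each other, namely Kcnj4 at 27.1 ± 4.77, Kcnj3 at 23.3 ± 4.70 and Kcnj9 at 22.4 ± 4.62 FPKM. Another group followed with Kcnj16 at 9.48 ± 1.96, Kcnj11 at 9.04 ± 1.64 and Kcnj6 at 8.74 ± 1.84 FPKM. Kcnj12 at 5.74 ± 0.173 and Kcnj13 at 5.32 ± 0.953 FPKM came before Kcnj2. The ranges of the 3 mouse means did not overlap between Kcnj10 and Kcnj4, between Kcnj9 and Kcnj16, between Kcnj6 and Kcnj12, or between Kcnj13 and Kcnj2. In the other 5 neighbouring pairs they did, so the mean levels within each group differ by less than the spread between mice. Compared within mice, Kcnj4 was above Kcnj3 in 3 of 3 mice and 7 of 8 libraries, and Kcnj3 was above Kcnj9 in 3 of 3 mice and 6 of 8 libraries. The other 3 of these pairs changed order between mice.

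**Figure D1:**
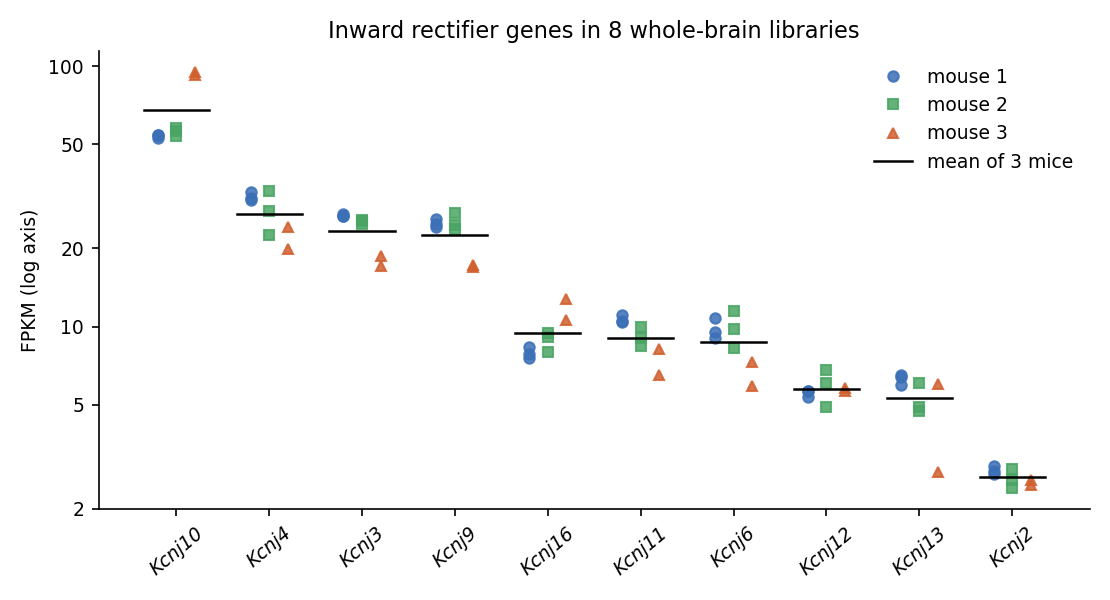
FPKM on a log axis of the 10 inward rectifier genes, ordered by mean level, with 1 point per library coloured by mouse (3, 3 and 2 libraries) and a line at the mean of the 3 mouse means. Kcnj10 stands alone at 52.8 to 95.2 FPKM, and the mouse 3 libraries lie above the other 6 for Kcnj10 and Kcnj16 and below them for Kcnj3, Kcnj6, Kcnj9 and Kcnj11.

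Of the 5 Kcnj genes outside the set, the highest was Kcnj8, the vascular ATP-sensitive subunit, at 1.36 ± 0.471 FPKM. Kcnj14 stood at 0.983 ± 0.193 and Kcnj5, best known from the heart, at 0.313 ± 0.0258 FPKM. Kcnj15 was at 0.0443 FPKM or lower in every library. Kcnj1, known from the kidney, was listed at 0 in all 8 libraries.

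The glial genes Kcnj10 and Kcnj16 were the 2 members that were higher in mouse 3. Kcnj10 lies on chromosome 1 (172341210 to 172374085, plus strand) and was listed as a single transcript. Its level was 52.8, 54.4 and 54.2 FPKM in the libraries of mouse 1, 53.9, 58.0 and 56.4 FPKM in those of mouse 2, and 92.6 and 95.2 FPKM in those of mouse 3. The first 6 libraries lay within a narrow band and both libraries of mouse 3 lay far above it. The difference of mouse 3 from the mean of mice 1 and 2 was 0.76 ± 0.07 (SE) on the log2(FPKM + 1) scale, a 1.71-fold ratio of mean FPKM (limma, adjusted p = 0.00146). The authors deposited confidence bounds with each value. They spanned 90.3 to 97.5 FPKM over the libraries of mouse 3 and 51.0 to 59.8 FPKM over the other 6, with no overlap. Such bounds belong to the estimate in 1 library and do not measure the spread between mice. They overlapped between mouse 3 and the other mice for the main transcripts of Kcnj4, Kcnj6, Kcnj11 and Kcnj16, which were also called different in mouse 3.

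Kcnj16 encodes Kir5.1, which conducts little alone and makes pH-sensitive channels with Kir4.1. Its gene lies on chromosome 11 (110968033 to 111027967, plus strand), 38196 bases before Kcnj2. It was at 8.34, 7.84 and 7.58 FPKM in mouse 1, 9.48, 9.08 and 7.98 FPKM in mouse 2, and 10.6 and 12.8 FPKM in mouse 3. Both libraries of mouse 3 were above the other 6, by a smaller margin than for Kcnj10. The difference was 0.43 ± 0.10 on the log2 scale, or 1.39-fold (limma, adjusted p = 0.0103). It no longer passed without mouse 3 library 2 (0.31, limma, adjusted p = 0.1) or when each library was scaled to the same total as TPM (0.17, limma, adjusted p = 0.241).

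The astrocyte markers moved with these genes. All 6 (Aqp4, Aldh1l1, Gja1, Slc1a3, Gfap and Aldoc) were called higher in mouse 3, beside 20.4% of all genes tested. Their summed level was 591 to 644 FPKM in mice 1 and 2 and 994 and 1100 FPKM in mouse 3. Under TPM scaling 3 of the 6 were called higher and none lower, and without mouse 3 library 2 all 6 were still called. The level of Kcnj10 divided by that sum was 0.0861 to 0.0926 in mice 1 and 2. In mouse 3 it was 0.0865 and 0.0932, so these ranges overlapped. Aldoc was the largest part of the sum. Its log2 difference of 0.92, and that of Gfap at 1.03, were above the 0.76 of Kcnj10. Those of Aqp4, Aldh1l1, Gja1 and Slc1a3 were 0.45 to 0.53, below that of Kcnj10. Kcnj10 divided by Aqp4, the water channel of astrocyte endfeet, was 1.09 to 1.31 in mice 1 and 2 and 1.43 and 1.57 in mouse 3, with no overlap. Kcnj16 divided by the marker sum was 0.0121 to 0.0161 in mice 1 and 2 and 0.0106 and 0.0116 in mouse 3, below all 6. Divided by Aqp4 alone, Kcnj16 was 0.172 to 0.205 in mice 1 and 2. In mouse 3 that ratio was 0.179 and 0.192, inside the range of the other mice. In bulk tissue more astrocytes and more RNA per astrocyte cannot be told apart. Oligodendrocytes also use Kir4.1, and 4 of their 6 markers were called higher, 2 of them without mouse 3 library 2, with Mbp at 1253 to 1365 FPKM in mice 1 and 2 and 2836 and 3495 FPKM in mouse 3. The part of oligodendrocytes in the level of Kcnj10 was not tested. Kcnj16 divided by Kcnj10 was 0.147, 0.158 and 0.124 in the 3 mice, and the difference did not pass an exact permutation test (p = 0.0714, or 0.25 after adjustment over the 7 ratios tested).

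Among the genes that handle potassium, water and glutamate beside Kir4.1, 6 of the 7 tested were called higher in mouse 3 and none lower. Of all genes tested, 20.4% were called higher and 17.5% lower. The median log2 difference of the 7 was 0.46, against 0.02 for all genes tested. The 6 called higher included the glutamate transporters Slc1a2 (0.46 ± 0.09, limma adjusted p = 0.00596) and Slc1a3 (0.53 ± 0.07, limma adjusted p = 0.00247). The gap junction genes Gja1 (0.52 ± 0.08) and Gjb6 (0.59 ± 0.11) were among them too, as was Aqp4 (0.45 ± 0.08). The sodium pump subunit Atp1b2 did not pass (0.16 ± 0.07, limma adjusted p = 0.0866) and was at -0.14 under TPM scaling. Of these 7 genes, Slc1a3 and Gjb6 were the 2 called under that scaling, and 5 (all of the 6 but Gjb6) were called without mouse 3 library 2. The listed genes Aqp4, Gja1 and Slc1a3 are also among the astrocyte markers. Trpv4, a cation channel, was below 1 FPKM in every library.

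The 3 genes with the profile most like that of Kcnj10 over the 8 libraries were Asrgl1, Ptgr2 and Plekhm2. Their root mean square difference from Kcnj10, after each gene was centred on its own mean of log2(FPKM + 1), was 0.0333, 0.0375 and 0.0395, against a median of 0.350 over all genes tested. Their own differences of mouse 3 from mice 1 and 2 were 0.75, 0.71 and 0.72. The 8 points come from 3 mice, and the likeness describes the shared step in mouse 3.

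The G-protein-gated subunits Kcnj3, Kcnj6 and Kcnj9, which encode GIRK1, GIRK2 and GIRK3, were all lower in mouse 3. These channels open when the βγ dimer of an inhibitory G protein binds them, and GIRK1 needs a partner subunit to reach the membrane. Kcnj3 (chromosome 2, 55435970 to 55598145, plus strand) was at 27.0, 26.6 and 26.5 FPKM in mouse 1, 25.6, 24.8 and 25.3 FPKM in mouse 2, and 17.1 and 18.7 FPKM in mouse 3. Both libraries of mouse 3 were far below the other 6, which hardly varied. The difference was -0.51 ± 0.07 on the log2 scale (limma, adjusted p = 0.00239), with a ratio of mean FPKM of 0.690. The deposited bounds of its main transcript, 15.0 to 19.3 FPKM in mouse 3 and 22.7 to 28.2 FPKM in the others, did not overlap.

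Kcnj9 encodes GIRK3, a subunit that binds sorting nexin 27, a protein of endosomes. The gene lies on chromosome 1 (172321033 to 172329263, minus strand) and points away from Kcnj10, with 11946 bases and no protein-coding gene between them. It was at 25.8, 24.7 and 24.01 FPKM in mouse 1, 27.4, 24.5 and 23.7 FPKM in mouse 2, and 17.2 and 16.9 FPKM in mouse 3. Again both libraries of mouse 3 were the lowest, by -0.53 ± 0.08 on the log2 scale (limma, adjusted p = 0.00303). These neighbours therefore differed in opposite directions in the same mouse. The deposited bounds of Kcnj9 were 15.6 to 18.5 FPKM in mouse 3 and 22.3 to 29.2 FPKM in the others, with no overlap.

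Kcnj6 (chromosome 16, 94748683 to 94997696, minus strand) encodes GIRK2, the subunit of dopamine neurons and of many postsynaptic sites. It was at 9.56, 9.02 and 10.8 FPKM in mouse 1, 8.26, 11.5 and 9.78 FPKM in mouse 2, and 7.32 and 5.92 FPKM in mouse 3. Mouse 3 lay below the other 6 libraries, which were themselves more spread than for Kcnj3. The difference was -0.50 ± 0.13 on the log2 scale (limma, adjusted p = 0.0162) and no longer passed without mouse 3 library 2 (-0.37, limma, adjusted p = 0.169).

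Of 5 neuronal markers, 2 (Rbfox3 and Syt1) were also called lower in mouse 3 and none higher, beside 17.5% and 20.4% of all genes tested. Under TPM scaling all 5 were called lower, beside 5743 of the 13001 genes tested. With the trend with transcript length removed, 3 were called lower. The summed level of the 5 markers was 1669 to 1799 FPKM in mice 1 and 2 and 1449 and 1592 FPKM in mouse 3. Their part in the lower neuronal channel genes was not tested. Although the GIRK genes were lower in mouse 3, the mouse means of their proportions to each other were close. Kcnj9 divided by Kcnj3 was 0.932, 0.998 and 0.954 in the 3 mice, a mean of 0.961 ± 0.0338 (SD, n = 3 mice). Kcnj6 divided by Kcnj3 was 0.367, 0.390 and 0.372, a mean of 0.376 ± 0.0125. These means average unlike libraries, with 0.427 and 0.316 in mouse 3 and 0.323, 0.462 and 0.386 in mouse 2. In an exact permutation test over all 280 groupings of the 8 libraries, whose smallest p is 0.00357, neither ratio differed between mice beyond the spread between libraries (p = 0.396 and p = 0.889, exact permutation, two-sided). The single libraries ranged from 0.902 to 1.07 for the first ratio and from 0.316 to 0.462 for the second. How small a difference the test could detect was not examined.

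**Figure D2:**
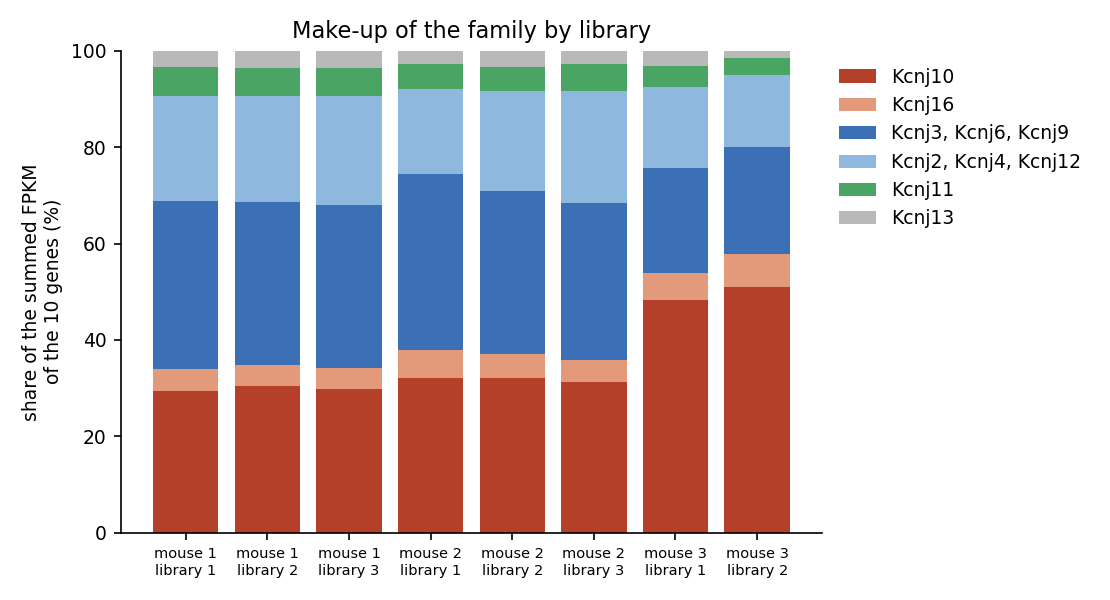
Share of the summed FPKM of the 10 genes, in percent, taken by Kcnj10, Kcnj16, the GIRK subunits, the Kir2 subunits, Kcnj11 and Kcnj13, as 1 stacked bar per library. Kcnj10 takes 29.4% to 32.2% in the 6 libraries of mice 1 and 2 and 48.4% and 50.9% in those of mouse 3, where the share of the GIRK subunits is 21.8% and 22.2%.

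Taken as shares of the 10 genes, Kcnj10 and Kcnj16 made up 34.3%, 36.9% and 55.8% of the summed FPKM in mice 1, 2 and 3. The GIRK subunits made up 34.1%, 34.3% and 22.0%, and the Kir2 subunits Kcnj2, Kcnj4 and Kcnj12 made up 22.2%, 20.6% and 16.0%. The sum over the 10 genes was 180, 176 and 189 FPKM in the 3 mice, so the make-up of the family moved more than its total. In mouse 3 the share of the glial genes was the larger and in mice 1 and 2 it was about that of the GIRK subunits.

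The 16 listed partners of GIRK signalling did not move as a block. In mouse 3, 3 were called higher and 5 lower, beside 20.4% and 17.5% of all genes tested. Their median log2 difference of 0.06 was near the 0.02 of all genes tested. Without mouse 3 library 2 this median was 0.01. Under TPM scaling 1 of the 16 was called higher and 8 lower, beside 1025 higher and 5743 lower of the 13001 genes tested. Gnao1, the main G-protein α subunit of neurons, was lower (-0.44 ± 0.09, limma adjusted p = 0.00642), as were the γ subunit gene Gng2 (-0.49 ± 0.07, limma adjusted p = 0.00301), Rgs7bp (-0.40 ± 0.07, limma adjusted p = 0.00394) and Gpr158 (-0.52 ± 0.09, limma adjusted p = 0.00504). Rgs7bp and Gpr158 anchor the RGS proteins that end G-protein signals. The γ subunit gene Gng7 was higher (0.68 ± 0.08, limma adjusted p = 0.00198). Gnb1, the most abundant of the 16 at 208 FPKM, and Gng3 did not pass (0.14 ± 0.08 and 0.16 ± 0.10) and were at -0.16 and -0.14 under TPM scaling.

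The Kir2 genes, which encode strong rectifiers that hold neurons near the potassium equilibrium potential, differed among themselves. Kcnj4 (Kir2.3, chromosome 15, 79483714 to 79505241, minus strand) was at 30.5, 31.2 and 32.8 FPKM in mouse 1, 22.4, 27.7 and 33.2 FPKM in mouse 2, and 24.2 and 19.8 FPKM in mouse 3. The libraries of mouse 2 covered nearly the whole range and overlapped mouse 3. The difference of -0.41 ± 0.14 on the log2 scale was just past the threshold (limma, adjusted p = 0.0467), and the call held without mouse 2 library 1 or mouse 3 library 1 and was lost without any of the other 6 libraries, with an adjusted p of up to 0.347 over all alternatives. Kcnj12 (Kir2.2, chromosome 11, 61022564 to 61073267, plus strand) ranged from 4.89 to 6.79 FPKM over mice 1 and 2 and was at 5.67 and 5.83 FPKM in mouse 3. Its difference was 0.0080, with a 95% interval of -0.23 to 0.25. Kcnj2 (Kir2.1, chromosome 11, 111066164 to 111076825, plus strand) was at 2.39 to 2.92 FPKM in mice 1 and 2 and 2.47 and 2.57 FPKM in mouse 3, a difference of -0.074 with a 95% interval of -0.25 to 0.10. Neither passed the test with FPKM. The intervals rest on the spread among libraries of a mouse and bound neither the variation between animals nor the effect of scaling. Under TPM scaling Kcnj2 was at -0.35 and Kcnj12 at -0.27, both outside their intervals.

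Kcnj12 divided by Kcnj4 was 0.177, 0.215 and 0.264 in the 3 mice and Kcnj2 divided by Kcnj4 was 0.0892, 0.0957 and 0.116. Neither ratio passed the exact permutation test (p = 0.0571 and p = 0.246, or 0.25 and 0.555 after adjustment over the 7 ratios tested). The scaffold proteins listed for these channels were also mixed, with 2 of 16 called higher in mouse 3 and 4 lower (median 0.14), beside 20.4% and 17.5% of all genes tested. These counts depended on the scaling, with 5 higher and 1 lower once the trend with transcript length was removed and 0 higher and 7 lower with TPM. Dlg4, which encodes the postsynaptic scaffold PSD-95, was higher (0.29 ± 0.07, limma adjusted p = 0.0138) and Dlg2 was too (0.20 ± 0.07, limma adjusted p = 0.0441), yet both were slightly below 0 under TPM scaling (-0.011 and -0.094), and without mouse 3 library 2 the list had 1 gene called higher and 1 lower. Dlg3 (-0.61 ± 0.09, limma adjusted p = 0.00303) and Cask (-0.37 ± 0.09, limma adjusted p = 0.0167) were lower. Dlg1 did not pass (0.17 ± 0.07, limma adjusted p = 0.0658) and was at -0.12 under TPM scaling.

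Kcnj11 encodes Kir6.2, the pore of the ATP-sensitive channel, and lies on chromosome 7 (46097123 to 46100764, minus strand) 3758 bases from Abcc8, the gene of its sulfonylurea receptor SUR1. Its level was 11.0, 10.4 and 10.5 FPKM in mouse 1, 8.40, 9.002 and 9.99 FPKM in mouse 2, and 8.20 and 6.52 FPKM in mouse 3. Mouse 3 was below the other 6 libraries, although its library 1 was close to the lowest library of mouse 2. The difference was -0.38 ± 0.10 on the log2 scale (limma, adjusted p = 0.0172), and it did not pass at -0.24 without mouse 3 library 2 (limma, adjusted p = 0.154). Abcc8, at 3.62 ± 0.900 FPKM, was lower as well (-0.51 ± 0.15, limma adjusted p = 0.0297), although its libraries overlapped between mice and the call held in 3 of the 8 fits that left out a library. Abcc9, the receptor SUR2, did not pass at 1.36 ± 0.0765 FPKM (-0.08 ± 0.10, limma adjusted p = 0.534). Kcnj11 divided by Abcc8 was 2.53, 2.34 and 2.86 in the 3 mice (p = 0.357, exact permutation). Kcnj8, which forms the vascular channel with SUR2, was at 0.673 to 1.41 FPKM in mice 1 and 2 and 1.58 and 2.22 FPKM in mouse 3 (0.48 ± 0.16, limma adjusted p = 0.0454), and this call too held in 3 of the 8 fits that left out a library and was lost under TPM scaling. Of 6 markers of pericytes and smooth muscle, which use this subunit, 2 were called higher in mouse 3, beside 20.4% of all genes tested. The summed level of the 6 markers was 69.6 to 84.4 FPKM in mice 1 and 2 and 97.9 and 113 FPKM in mouse 3. Their part in the level of Kcnj8 was not tested.

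**Figure D3:**
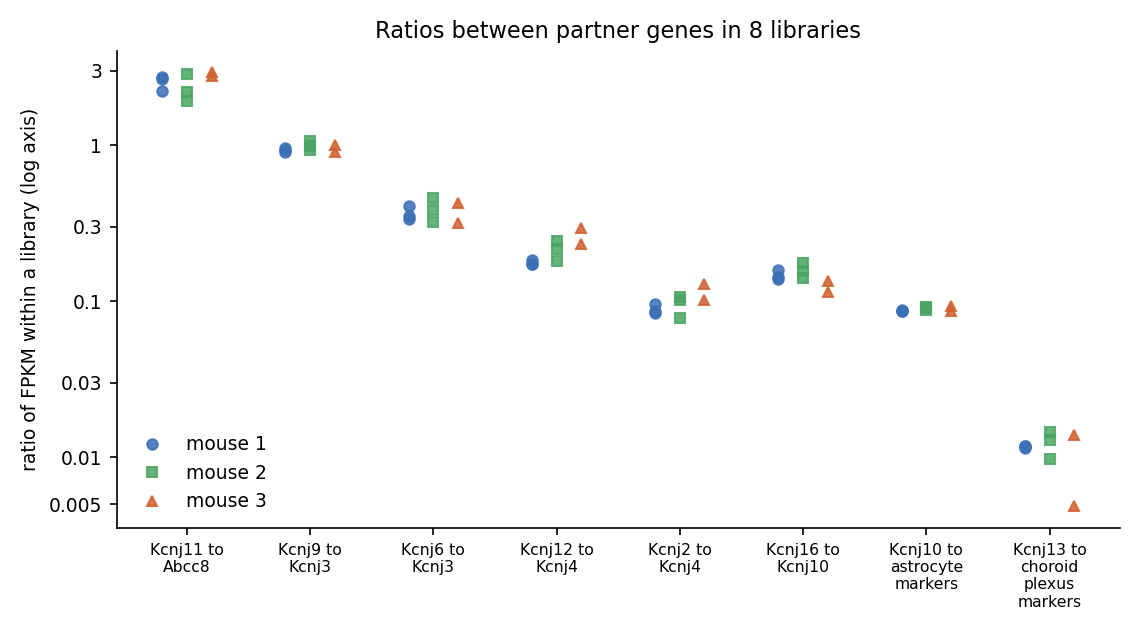
Ratios of FPKM within each library, on a log axis, for partner genes and for Kcnj10 and Kcnj13 against the summed markers of their cell types, with 1 point per library coloured by mouse. The 8 libraries lie between 0.0861 and 0.0932 for Kcnj10 against the astrocyte markers, a sum of which Aldoc is the largest part. Mouse 3 library 2 lies apart at 0.00486 for Kcnj13 against the choroid plexus markers.

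Kcnj13 encodes Kir7.1, which sits in the apical membrane of the choroid plexus epithelium, and lies on chromosome 1 (87386284 to 87394729, minus strand). It was at 5.98, 6.52 and 6.40 FPKM in mouse 1, 4.75, 6.09 and 4.91 FPKM in mouse 2, and 6.03 and 2.76 FPKM in mouse 3. The libraries of mouse 3 disagreed, with library 1 inside the range of the other mice and library 2 the lowest of all 8. No difference was called (-0.39 ± 0.20, 95% interval -0.85 to 0.07, limma adjusted p = 0.156). Of 6 choroid plexus markers, 1 was called lower in mouse 3 (Kl, a gene of this epithelium) and none higher. Of all genes tested, 17.5% were called lower and 20.4% higher. The sum of the 6 markers, 325 to 569 FPKM over the 8 libraries, was dominated by Ttr, the thyroxine carrier. Kcnj13 divided by that sum was 0.0117, 0.0124 and 0.00934 in the 3 mice (p = 0.521, exact permutation). On the other strand, 623 exonic bases of Kcnj13 are also exon of Gigyf2, a gene at 10.2 to 11.7 FPKM in mice 1 and 2 and 7.45 and 6.11 FPKM in mouse 3. Whether the counting used strand is not given in the sources used here, so reads in this overlap may belong to either gene. Smaller or noncoding overlaps of the same kind exist for Kcnj3 (1621 bases), Kcnj6 (380 bases) and Kcnj9 (172 bases), each with a noncoding RNA gene.

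**Figure D4:**
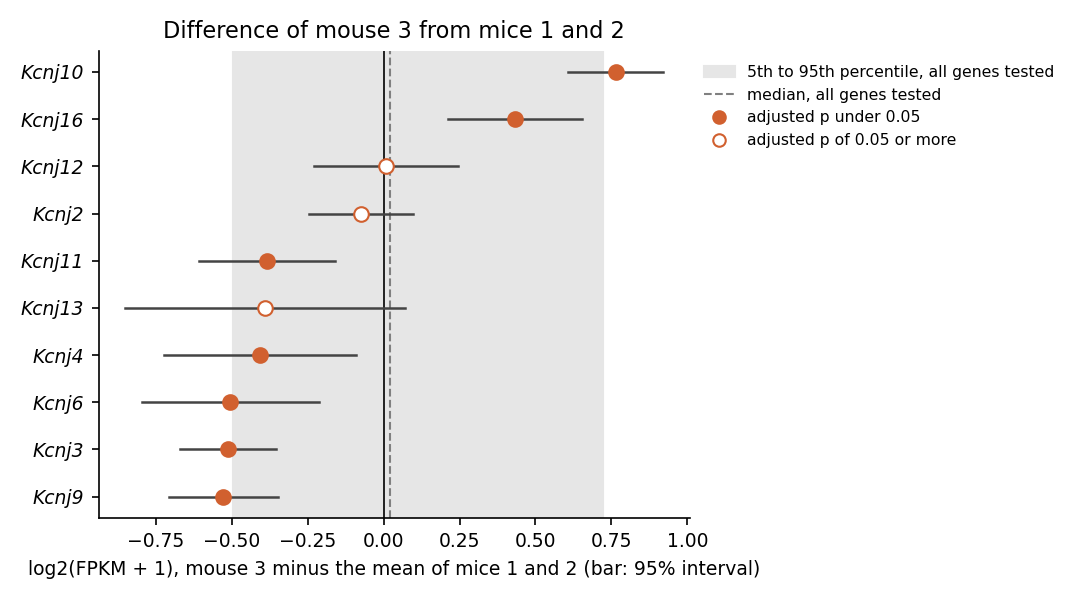
Difference of mouse 3 from the mean of mice 1 and 2 on the log2(FPKM + 1) scale for the 10 genes, as points with 95% intervals, with the 5th to 95th percentile of the 13001 genes tested in grey. Kcnj10 at 0.76 lies above the grey band and Kcnj3, Kcnj6 and Kcnj9 lie just below it, while Kcnj12 and Kcnj2 lie near 0. Under TPM scaling Kcnj12 is at -0.27 and Kcnj2 at -0.35.

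Over the 10 genes, all of which passed the filter on low values, the F-test over the 3 mice called 6 (Kcnj3, Kcnj6, Kcnj9, Kcnj10, Kcnj11 and Kcnj16), beside 25.5% of all genes tested. Its adjusted p was 0.0051 for Kcnj10, 0.00785 for Kcnj3 and 0.0101 for Kcnj9. The contrast of mouse 3 with mice 1 and 2 called 7, adding Kcnj4, beside 37.9% of all genes tested. It called 2 of the 10 higher, beside 20.4% of all genes, and 5 lower, beside 17.5%. Both libraries of mouse 3 lay outside the range of the other 6 for 6 of the 10 genes, beside 48.3% of all genes. They lay above it for 2, beside 26.5%, and below it for 4, beside 21.7%. In size, Kcnj10 lay at percentile 95.8 of the signed differences of all genes tested, and Kcnj9, Kcnj3 and Kcnj6 at percentiles 4.05, 4.49 and 4.72. Without mouse 3 library 2 the F-test kept Kcnj10 and Kcnj3, and the contrast kept Kcnj10, Kcnj3 and Kcnj9. When each library was left out in turn, the F-test called Kcnj10 and Kcnj3 in 8 of 8 fits, Kcnj9 in 7, Kcnj16 in 4, Kcnj11 in 3 and Kcnj6 in 1.

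Scaling each library to the same total moved the median log2 difference of all genes from 0.02 to -0.26 and the share of higher genes among those called from 53.9% to 15.1%. Under that scaling 9 of the 10 genes were called by the contrast, with Kcnj10 higher and the other 8 lower. The log2 difference of Kcnj10 was 0.47 with TPM, against 0.76 with FPKM, so its size depends on the scaling. Among the lower ones were Kcnj3 (-0.82), Kcnj9 (-0.84), Kcnj2 (-0.35), Kcnj12 (-0.27) and Kcnj13 (-0.72). Of all 13001 genes tested, the contrast called 1025 higher and 5743 lower under the same scaling. This scaling multiplies all genes of a library by the same factor and so shifts them about equally on the log2 scale. Differences relative to the median of all genes are therefore close under both scalings by construction, which is no test of the scaling. Relative to that median, Kcnj10 was at 0.74 with FPKM and 0.73 with TPM, and Kcnj16 at 0.41 and 0.43. On the same measure Kcnj3 was at -0.53 and -0.57, Kcnj9 at -0.55 and -0.58, and Kcnj12 at -0.012 and -0.016.

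The transcripts of a gene were listed separately, and 5 of the 10 genes had more than 1. Kcnj16 has 5 RefSeq transcripts with 4 start sites, and a single one, NM_001252209, held 89.6% to 97.2% of its FPKM in every library. It was at 7.02 to 9.22 FPKM in mice 1 and 2 and 9.92 and 11.6 FPKM in mouse 3. The start of NM_001252210, further downstream, held 0.935% to 5.71% in mice 1 and 2 and 6.21% and 9.02% in mouse 3, at no more than 1.15 FPKM, and its deposited bounds overlapped between mice. The 250 bases upstream of these 2 starts are shown because the files give their use in each library. They are RefSeq sequences on GRCm38.p6, plus strand, with the letters TATAAA in capitals where they occur.
NM_001252209, chr11:110997237-110997486: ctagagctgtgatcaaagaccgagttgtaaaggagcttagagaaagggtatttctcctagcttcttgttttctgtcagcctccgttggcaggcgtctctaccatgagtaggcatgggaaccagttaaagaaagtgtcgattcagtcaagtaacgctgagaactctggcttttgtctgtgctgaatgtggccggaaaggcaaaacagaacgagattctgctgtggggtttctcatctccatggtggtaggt
NM_001252210, chr11:111019335-111019584: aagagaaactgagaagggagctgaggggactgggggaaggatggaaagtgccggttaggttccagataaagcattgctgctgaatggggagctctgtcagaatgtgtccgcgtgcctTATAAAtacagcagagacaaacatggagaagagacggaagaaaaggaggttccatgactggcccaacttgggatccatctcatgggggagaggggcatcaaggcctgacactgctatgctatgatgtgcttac
TATAAA was searched on both strands. It was found upstream of the minor start and not in the window of the dominant start. Over 13 annotated starts of 9 of the genes, 3 held it, and 12.4% of 32851 RefSeq promoters did. A match of these letters is a description and not evidence of a bound factor.

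Kcnj6 was divided mainly between NM_001025584, with 50.2% to 73.6% of its FPKM, and NM_010606, with 26.2% to 48.4%. These 2 transcripts share a start and end at different positions, and NM_001025584 was at 4.58 to 7.49 FPKM in mice 1 and 2 and 3.67 and 3.42 FPKM in mouse 3. NM_010606 overlapped between mice, at 2.56 to 4.65 FPKM and 3.54 and 2.32 FPKM. Kcnj11 was mostly NM_010602, with 66.6% to 100% of its FPKM. Kcnj12 was nearly all NM_001267593, with 90.9% to 100%, and Kcnj3 nearly all NM_008426, with 92.3% to 100%. Reads of exons that transcripts share were divided between them by estimation, so a value for 1 transcript is held less firmly than the gene's sum.

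**Figure D5:**
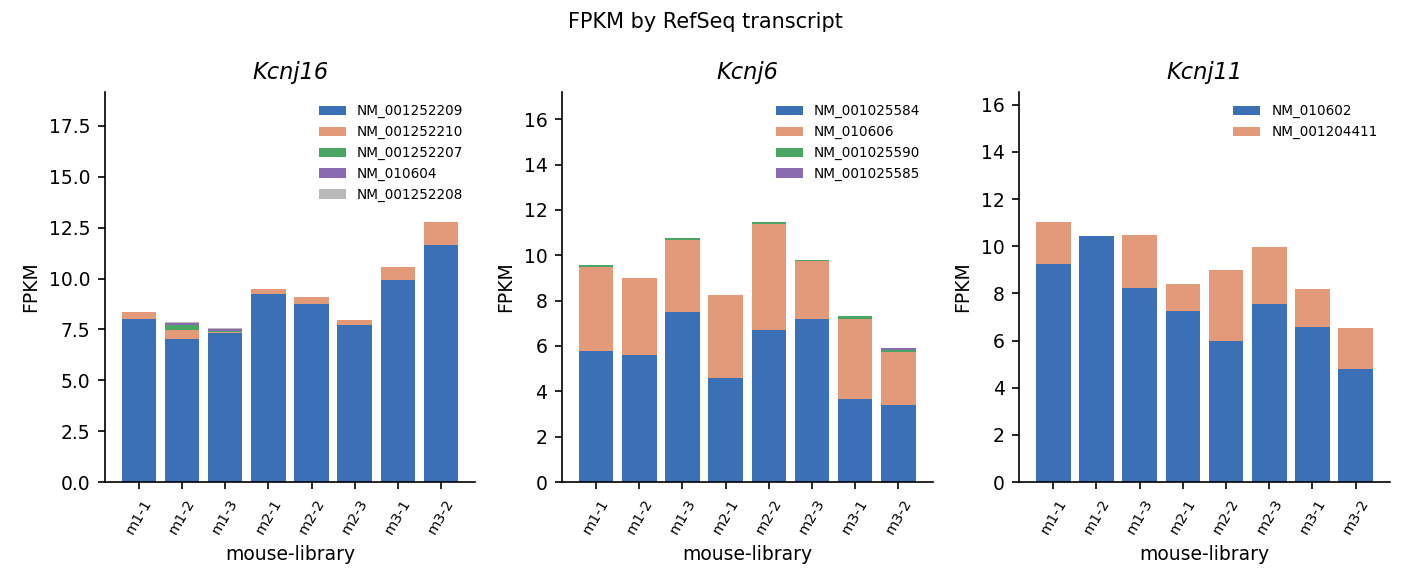
FPKM of Kcnj16, Kcnj6 and Kcnj11 in each library (mouse-library on the horizontal axis), as stacked bars divided by RefSeq transcript. Kcnj16 is nearly all NM_001252209, whereas NM_001025584 and NM_010606 both contribute to Kcnj6 in every library.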

How the data were processed

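Whole-brain RNA of 3 mice was sequenced as 8 libraries, grouped by the mouse given in the labels. Per the labels and the methods, RNA was extracted with the RNAqueous Micro kit, kept at an integrity score above 8, and made into libraries with Kapa mRNA HyperPrep kits for a NextSeq500. The authors deposited FPKM with confidence bounds for 34535 RefSeq transcripts in each library, and the deposited coverage is a signal of read depth per base. The submitters' processing notes name TopHat, Cufflinks and mm10. Their versions, parameters and strand setting are not given in the sources used here.

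FPKM values were summed per gene and averaged over libraries, then mice. Counting intervals were not computed from FPKM, which are no counts; gigabases are coverage multiplied by length. The 13001 genes that averaged 1 FPKM or more were tested on log2(FPKM + 1) with limma 3.58.1 in R 4.3.3, by an F-test over mice and by the contrast of mouse 3 with mice 1 and 2, with Benjamini-Hochberg adjustment over all genes tested and a threshold of 0.05. The pseudocount understates changes of low genes. Ratios were compared by exact permutation with SciPy 1.17.1. Scripts were tested on simulated data. Alternatives were a pseudocount of 0.1 FPKM, no filter or 0.1 FPKM, TPM, a removed trend with transcript length, the highest transcript, a replicate block, trended and robust moderation, and each library left out. All 10 genes were named; of the partner lists, the 3 highest and up to 5 past the threshold by adjusted p were named, apart from an item that is not reported here. The genes, lists and contrast were chosen with earlier results of these data known.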

Additional observations from a re-analysis of the deposited data

Results flagged for a closer look

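Kcnj13 in mouse 3 library 2 was at 2.76 FPKM, and the other 7 libraries were at 4.75 to 6.52 FPKM. Its distance from the next library made up 0.529 of the range over all 8, just above the limit of 0.526 for 8 libraries. Kcnj15 in mouse 3 library 1 was at 0.0443 FPKM, against 0 to 0.0155 FPKM in the others, far below 1 FPKM. These were 2 of 42 measures examined in this way, and chance alone marks about 1 in 20. The 8 libraries come from 3 mice, and the cause of either value was not tested.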

How the results depend on the processing

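Of the 10 genes, Kcnj10 and Kcnj3 were called by the F-test and by the contrast in all 16 alternatives, and Kcnj9 in 15 by the F-test and in 16 by the contrast. The F-test called 6 of the 10 genes, and 3 with no filter on low values, with the highest transcript or with the replicate block. Leaving out a library gave 2 to 7. Of all genes it called 3310, with 1225 under no filter, 5493 with TPM and 2083 with the highest transcript, and 126 to 3860 without a library. The contrast called 7 members, 4 with no filter and 3 to 8 without a library. More genes were tested without the filter (24343). The cause of the other changes was not tested. With 1 of its libraries left out, mouse 3 has a lone library, which is assumed to vary like the other mice. Both such fits take the spread from mice 1 and 2 and differ only in the library of mouse 3 that is kept.

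Some differences turned direction. With TPM the log2 difference was -0.27 for Kcnj12, -0.14 for Atp1b2, -0.12 for Dlg1, -0.094 for Dlg2, -0.011 for Dlg4, -0.16 for Gnb1 and -0.14 for Gng3. With the length trend removed it was 0.082 for Kcnj2, 0.15 for Abcc9 and -0.027 for Gng3, and with the highest transcript it was -0.053 for Kcnj12, 0.027 for Abcc9 and -0.15 for Dlg1. Leaving out a library gave -0.047 to 0.054 for Kcnj12, -0.84 to 0.062 for Kcnj13 and -0.21 to 0.044 for Abcc9.

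Among the ratios, the log2 difference of mouse 3 with the length trend removed was -0.38 for Kcnj16 to Kcnj10, 0.66 for Kcnj12 to Kcnj4 and 0.63 for Kcnj2 to Kcnj4, each past a raw p of 0.05 there. Kcnj16 to Kcnj10 also passed without mouse 2 library 3 (-0.34), and Kcnj12 to Kcnj4 without mouse 2 library 2 (0.48), mouse 2 library 3 (0.38) or mouse 3 library 1 (0.60). Without a library the ranges were -0.41 to -0.18, 0.27 to 0.60 and 0.15 to 0.50 for these, -0.25 to 0.18 for Kcnj6 to Kcnj3, -0.096 to 0.061 for Kcnj9 to Kcnj3, and -1.30 to 0.20 for Kcnj13 to the choroid plexus markers.

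Over 7 same-number pairs of libraries the correlation of deviations from the mouse means was 0.00276 to 0.107, with 1 pair over 0.1. Over pairs with different numbers it was -0.135 to 0.0645. Deviations within a mouse sum to 0, so the values of these kinds of pair are not independent. Whether the library number pairs the samples is not settled by them. With the number as a block, the F-test called 3 of the 10 genes (Kcnj3, Kcnj9 and Kcnj10) and 2995 of all genes, the contrast called 6 (all but Kcnj4 of the 7), and 61.4% of called genes were higher. The depth of 1.31 to 2.02 gigabases limits the low genes most.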
